A study of Mus musculus with 9 samples.

Results

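The genes described here encode molecules through which a tumour cell meets lymphocytes: the checkpoint ligands Cd274, Cd276 and Btn2a2, the galectins Lgals1, Lgals3 and Lgals9, the nectin-family ligands Nectin2 and Pvr, and Nt5e, an enzyme that makes adenosine. They are 9 of the 51717 genes with a row after transcripts were summed to genes, and they were listed by name and function, with earlier results of these data known. Of the 9, 8 passed the filter on low counts and were among the 13064 genes tested, and Nt5e did not pass it.

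B16F10 is a pigmented mouse melanoma cell line, grown here in culture. The libraries come from cells overexpressing Sirpa, cells with knockdown of Sirpa and cells carrying a non-target control, with 3 libraries of each called biological repeats by the labels. Sirpa encodes an inhibitory receptor for CD47 that is best known from macrophages. The labels say neither how each line was made nor whether it is 1 clone, so the p-values cover the spread between repeats of 1 line a condition and not between lines made separately. In bulk RNA, fewer cells carrying a transcript and less of it in each cell cannot be told apart.

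As background, PD-L1, the product of Cd274, binds PD-1 on T cells and dampens their response, and its transcription is induced by interferon gamma. B7-H3, the product of Cd276, belongs to the same B7 family, and Btn2a2 is a butyrophilin that inhibits T cell activation in mice. Galectins bind sugars on surface proteins: galectin-1 can kill or silence activated T cells, galectin-3 forms lattices that hold receptors apart, and galectin-9 is a ligand of TIM-3. Nectin-2 and the poliovirus receptor, the products of Nectin2 and Pvr, bind both the activating receptor DNAM-1 and the inhibitory receptor TIGIT on T and NK cells. CD73, the product of Nt5e, turns extracellular AMP into adenosine, which inhibits T cells.

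The promoter sequence of 7 of the 9 genes was in the RefSeq table of build GRCm38.p6, as 250 bases before and 50 after each start. These windows were searched on both strands for TTCNNNGAA (a gamma-activated site), GAAANNGAA (the core of an interferon-stimulated response element), GGANTTTCC (NF-kB), TGANTCA (AP-1) and CACGTG (an E-box). Only GAAANNGAA had a match, in Cd274, Btn2a2 and Lgals9, and 8.56% of the 32851 promoters of the table hold it. The other motifs are held by 8.3%, 1.25%, 7.81% and 7.15% of the promoters, in the order given. The 250 bases before the start of these 3 genes are shown because they hold the matches, written in the direction of transcription with the match in capitals, and the positions are chr19:29367188-29367437 (plus strand) for Cd274, chr13:23488858-23489107 (minus strand) for Btn2a2 and chr11:78984925-78985174 (minus strand) for Lgals9.
Cd274: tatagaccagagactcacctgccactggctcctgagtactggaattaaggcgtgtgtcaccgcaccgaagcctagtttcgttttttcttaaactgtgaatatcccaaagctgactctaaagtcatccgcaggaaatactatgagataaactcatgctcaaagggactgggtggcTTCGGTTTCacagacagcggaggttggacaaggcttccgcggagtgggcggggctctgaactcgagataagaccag
Btn2a2: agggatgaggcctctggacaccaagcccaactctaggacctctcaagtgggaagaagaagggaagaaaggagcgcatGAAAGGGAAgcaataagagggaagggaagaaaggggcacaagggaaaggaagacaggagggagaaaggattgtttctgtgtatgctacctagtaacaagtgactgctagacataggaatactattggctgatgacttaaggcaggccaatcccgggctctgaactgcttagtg
Lgals9: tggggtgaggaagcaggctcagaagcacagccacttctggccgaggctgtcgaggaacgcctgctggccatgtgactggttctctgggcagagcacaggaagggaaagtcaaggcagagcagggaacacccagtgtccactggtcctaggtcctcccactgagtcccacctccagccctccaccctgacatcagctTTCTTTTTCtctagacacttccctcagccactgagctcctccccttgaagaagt
The capitals begin 76 bases before the start in Cd274, 173 in Btn2a2 and 54 in Lgals9, and Lgals9 had a second match 17 bases after its start. A match is a description of letters and not a site shown to be bound. Within the 300 bases the number of CpG pairs was 15 in Cd274, 39 in Cd276, 6 in Btn2a2, 18 in Lgals3, 4 in Lgals9, 20 in Nectin2 and 23 in Nt5e, against a median of 7 over all promoters.

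Sirpa itself followed the labels. Its level, in counts per 1000000 with TMM library sizes (CPM), was 894.9, 897.9 and 913.6 in overexpression libraries, 118.1, 112.2 and 115.1 in knockdown libraries and 292.5, 289.2 and 303.3 in control libraries. Its log2 fold change against control was 1.61 ± 0.04 (SE) in overexpression and −1.36 ± 0.04 in knockdown cells (edgeR adjusted p = 4.70e-14 and 4.57e-13). The libraries held 16.4 to 22.38 times 1000000 estimated counts each. The 10 melanocyte markers listed were tested in every comparison, and their summed level was 19749 to 20225 CPM in overexpression, 17158 to 17817 in knockdown and 17894 to 18090 in control libraries. In overexpression cells 5 of the 10 were called higher and 2 lower than in control (13.1% and 11.1% of all genes). In knockdown cells 1 was called higher and 6 lower (18.0% and 17.4% of all genes). Sox10 and Mitf, factors of the melanocyte lineage, were lower in both lines. Of the 11 T and NK cell markers 10 had 0 counts in every library, as had Ptprc, the pan-leukocyte marker, and 3 of 4 B cell markers. Fibroblast markers summed to 103 to 113 CPM in overexpression, 60.7 to 69.8 in knockdown and 87.7 to 97.1 in control libraries. The lower knockdown sum came from Col1a1, at 66.5 CPM in overexpression, 4.95 in knockdown and 55.6 in control cells, whereas Postn (14.3, 34.0 and 15.0 CPM) and Col1a2 (8.39, 8.62 and 5.27 CPM) were called higher in knockdown than in control cells. Endothelial markers, led by Eng, summed to 294 to 312 CPM in overexpression, 347 to 382 in knockdown and 264 to 283 in control libraries. The part of these marker levels in the results below was not tested.

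Levels between genes were compared in TPM, transcripts per 1000000, a value per length. Lgals1 stood far above the others in every line, at 1691 ± 26 TPM in overexpression, 1562 ± 123 in knockdown and 1690 ± 25 in control libraries (SD, n = 3 each). Only 89 of the tested genes in the overexpression line, 101 in the knockdown line and 102 in the control line had a higher mean. Lgals3 came next at 89.7 ± 4.3, 56.4 ± 0.78 and 84.2 ± 3.8 TPM in overexpression, knockdown and control libraries. The ratio of Lgals1 to Lgals3 was 18.9 ± 1.16, 27.7 ± 2.54 and 20.1 ± 0.60 in the same order of lines. Lgals9, Nectin2 and Pvr followed in each line. In control libraries Lgals9 and Nectin2 overlapped, at 27.3 ± 0.70 and 26.1 ± 1.02 TPM, whereas Lgals9 lay above every Nectin2 value in the other lines, at 60.4 ± 6.2 against 36.6 ± 2.9 TPM in overexpression and 46.4 ± 2.9 against 38.6 ± 3.2 TPM in knockdown libraries. Pvr held 24.9 ± 3.4, 32.0 ± 0.32 and 23.2 ± 1.6 TPM in overexpression, knockdown and control libraries.

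**Figure D1:**
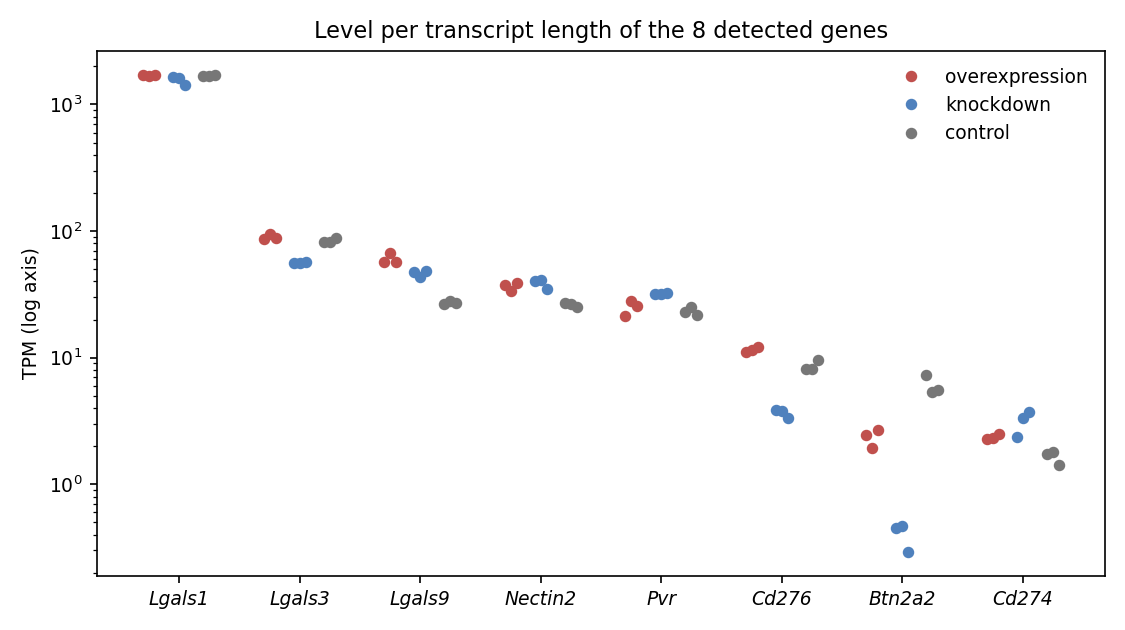
TPM on a log axis for the 8 detected genes in each library, coloured by line, with genes ordered by their level in control cells. Lgals1 averages 1562 to 1691 TPM in the lines, and the low end of the order differs between lines: Btn2a2 averaged 2.35, 0.406 and 6.08 TPM in overexpression, knockdown and control libraries.

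The 3 checkpoint ligands stood lowest of the detected genes and their order differed between lines. In control cells Cd276 (8.64 ± 0.75 TPM) exceeded Btn2a2 (6.08 ± 1.11 TPM) and Cd274 (1.65 ± 0.21 TPM), with no overlap. In overexpression cells Cd276 held 11.6 ± 0.52 TPM, and Cd274 (2.36 ± 0.12 TPM) and Btn2a2 (2.35 ± 0.39 TPM) overlapped. In knockdown cells Cd276 (3.67 ± 0.28 TPM) and Cd274 (3.15 ± 0.70 TPM) overlapped, above Btn2a2 (0.406 ± 0.098 TPM). The ratio of Cd276 to Cd274 was 4.92 ± 0.048 in overexpression, 1.22 ± 0.37 in knockdown and 5.33 ± 1.20 in control libraries. Nt5e had 0 counts in all 9 libraries, where a floor of 3 counts corresponds to 0.135 to 0.184 CPM a library (counting error only), so no level and no difference of Nt5e was detectable.

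Against control, Btn2a2 was lower in both lines, Cd276 was lower in knockdown and higher in overexpression cells, and Cd274 was higher in knockdown cells. Nectin2 and Lgals9 were higher in both lines, Pvr was higher in knockdown cells, and Lgals3 and Lgals1 were lower in knockdown cells. A gene was called when its Benjamini-Hochberg adjusted p over the 13064 genes tested was under 0.05.

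Btn2a2 had the largest difference among the 8 genes. It measured 3.73, 2.88 and 3.95 CPM in overexpression libraries, 0.631, 0.595 and 0.365 CPM in knockdown libraries and 11.3, 8.18 and 8.58 CPM in control libraries. No 2 lines overlapped, and the knockdown libraries held 30 counts in all, against 493 in control libraries. Btn2a2 was 17.2-fold lower in knockdown than in control cells (log2 fold change −4.10 ± 0.30 SE, edgeR quasi-likelihood adjusted p = 3.42e-08). In overexpression cells it was 2.65-fold lower than in control cells (log2 −1.40 ± 0.25, edgeR adjusted p = 0.000559), and it was 6.49-fold higher in overexpression than in knockdown cells (edgeR adjusted p = 8.65e-06).

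Cd276 measured 25.1, 25.2 and 26.0 CPM in overexpression libraries, 8.93, 8.15 and 7.23 CPM in knockdown libraries and 19.1, 18.7 and 21.5 CPM in control libraries. Each line lay apart from the others. It was 2.43-fold lower in knockdown than in control cells (log2 −1.28 ± 0.11, edgeR adjusted p = 2.78e-07) and 3.13-fold higher in overexpression than in knockdown cells (log2 1.64 ± 0.11, edgeR adjusted p = 3.02e-08). Against control, overexpression cells were higher by log2 0.36 ± 0.11 (edgeR adjusted p = 0.0197). That last call was lost in 6 of 19 alternatives, with adjusted p of 0.0541 without overexpression replicate 1, 0.0704 without overexpression replicate 3, 0.0657 without control replicate 1, 0.0727 without control replicate 2, 0.0663 with an average transcript length offset and 0.0633 on log2(TPM + 1). Gm10657, on the opposite strand, shares 10.49% of the 31-base words of Cd276, and with non-directional libraries reads from that shared part cannot be told apart. The estimated counts of Gm10657 totalled 13.0 in overexpression, 0.0 in knockdown and 5.3 in control libraries.

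Cd274 was scarce, with 5.52, 5.59 and 5.85 CPM in overexpression libraries, 5.68, 7.80 and 8.51 CPM in knockdown libraries and 4.23, 4.49 and 3.50 CPM in control libraries. Both altered lines lay above control, and knockdown replicate 1 lay within the overexpression range. Cd274 was 1.80-fold higher in knockdown than in control cells (log2 0.85 ± 0.21, edgeR adjusted p = 0.00508). Against control, overexpression cells gave log2 0.48 ± 0.21 (edgeR adjusted p = 0.123), which did not pass. The overexpression and knockdown lines differed by log2 −0.37 ± 0.21 (edgeR adjusted p = 0.231), also short of the threshold. The opposite-strand gene AC119228.1 shares 12.06% of the 31-base words of Cd274, and its estimated counts totalled 13.3 in overexpression, 22.3 in knockdown and 14.1 in control libraries, so part of those reads cannot be told apart from Cd274.

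**Figure D2:**
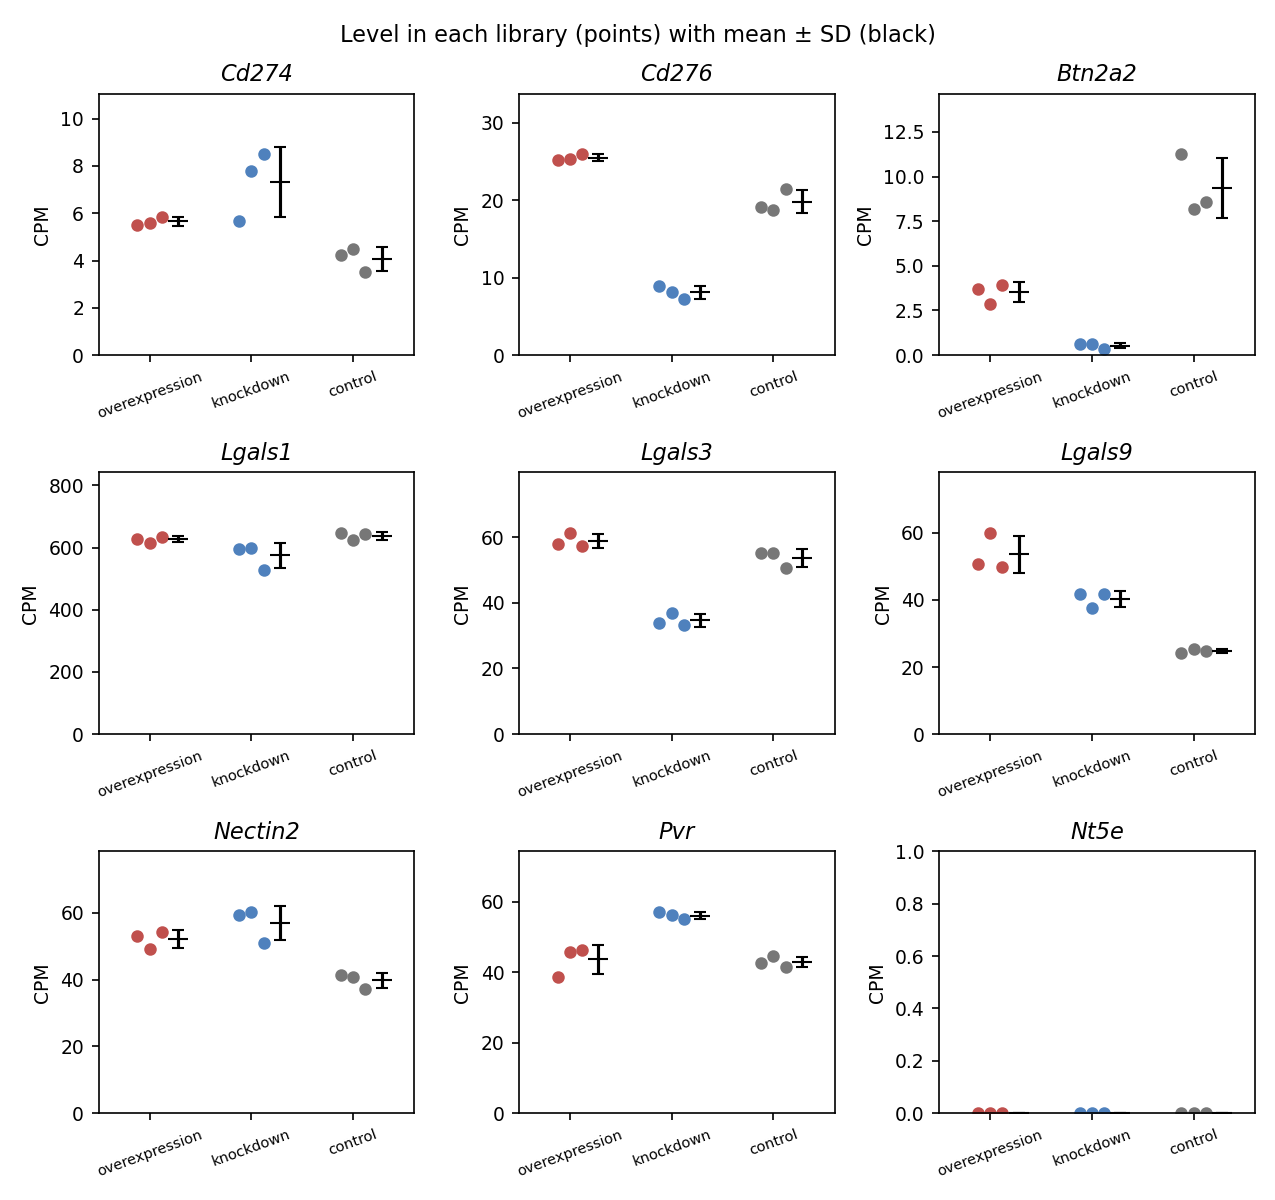
CPM in each library (points) with mean ± SD (black) for the 9 genes, in overexpression, knockdown and control cells from left to right, each panel with its own axis from 0. Cd276 and Btn2a2 are lowest in knockdown cells, at 8.10 and 0.530 CPM on average, and Nt5e stays at 0 throughout.

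Lgals9, the galectin that TIM-3 binds, measured 50.8, 60.02 and 49.9 CPM in overexpression libraries, 41.8, 37.6 and 41.7 CPM in knockdown libraries and 24.1, 25.5 and 24.8 CPM in control libraries. The 3 lines did not overlap, with overexpression highest and control lowest. Lgals9 was 2.16-fold higher in overexpression (log2 1.11 ± 0.08, edgeR adjusted p = 1.13e-07) and 1.63-fold higher in knockdown cells (log2 0.70 ± 0.09, edgeR adjusted p = 8.84e-06) than in control cells. The overexpression line also lay above the knockdown line, by log2 0.41 ± 0.08 (edgeR adjusted p = 0.00187).

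Lgals3 measured 57.9, 61.3 and 57.3 CPM in overexpression libraries, 33.8, 37.0 and 33.3 CPM in knockdown libraries and 55.3, 55.2 and 50.6 CPM in control libraries. Every knockdown library lay below all others. Lgals3 was 1.55-fold lower in knockdown than in control cells (log2 −0.63 ± 0.07, edgeR adjusted p = 4.67e-06) and 1.70-fold higher in overexpression than in knockdown cells (edgeR adjusted p = 1.17e-06). Overexpression against control gave log2 0.13 ± 0.07 (edgeR adjusted p = 0.192), which did not pass although the ranges did not overlap. Lgals1 measured 629, 616 and 636 CPM in overexpression libraries, 595, 600 and 529 CPM in knockdown libraries and 647, 624 and 643 CPM in control libraries. The knockdown libraries were lowest, by log2 −0.15 ± 0.04 against control (edgeR adjusted p = 0.0155), but this small difference lost its call without knockdown replicate 3, where it was −0.09 (adjusted p = 0.0734), and without control replicate 1 or control replicate 3 (adjusted p = 0.0611 and 0.0608). It also lost the call with the length offset (adjusted p = 0.0595) and on log2(TPM + 1) (adjusted p = 0.195). Overexpression against control was −0.03 ± 0.04 (edgeR adjusted p = 0.743), and overexpression against knockdown 0.12 ± 0.04 (edgeR adjusted p = 0.058), neither past the threshold.

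Nectin2 measured 53.2, 49.0 and 54.3 CPM in overexpression libraries, 59.2, 60.3 and 51.0 CPM in knockdown libraries and 41.5, 40.7 and 37.2 CPM in control libraries. Both altered lines lay above control and overlapped each other. The log2 fold change against control was 0.39 ± 0.08 in overexpression (edgeR adjusted p = 0.00195) and 0.52 ± 0.08 in knockdown cells (edgeR adjusted p = 0.000101), and the altered lines differed by −0.12 ± 0.08 (edgeR adjusted p = 0.300), short of the threshold. Pvr, whose gene lies on chromosome 7 with Nectin2, measured 38.8, 45.9 and 46.3 CPM in overexpression libraries, 57.2, 56.2 and 55.1 CPM in knockdown libraries and 42.6, 44.6 and 41.5 CPM in control libraries. The knockdown libraries lay above all others, and overexpression and control libraries overlapped. Pvr was higher in knockdown than in control cells by log2 0.39 ± 0.08 (edgeR adjusted p = 0.000789) and lower in overexpression than in knockdown cells by −0.37 ± 0.08 (edgeR adjusted p = 0.00234), a call lost with the length offset (adjusted p = 0.0608) and on log2(TPM + 1) (adjusted p = 0.0638). Overexpression against control gave 0.02 ± 0.08 (edgeR adjusted p = 0.864), whose sign turned in 3 leave-one-out fits.

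**Figure D3:**
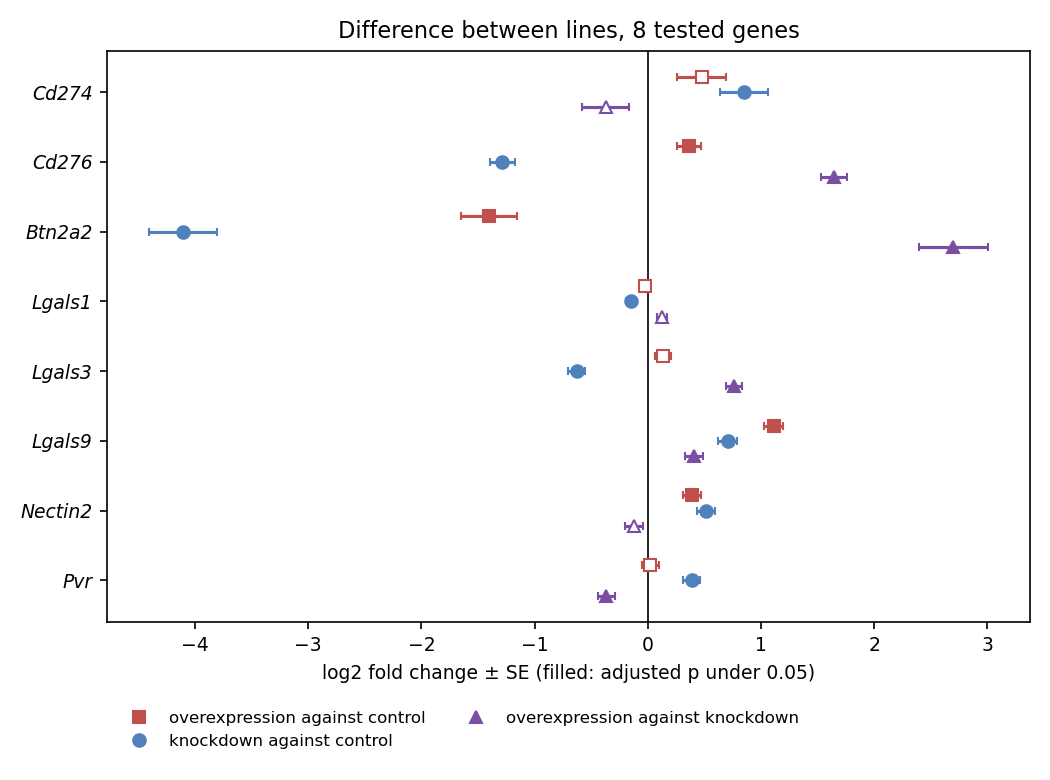
log2 fold change with its standard error for the 8 tested genes, for overexpression against control, knockdown against control and overexpression against knockdown, filled where the adjusted p was under 0.05. Btn2a2 reaches −4.10 in knockdown and −1.40 in overexpression cells, and Lgals9 lies above 0 in all 3 comparisons.

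Against the whole table, 8 of the 8 tested genes were called in knockdown cells against control, 4 higher and 4 lower, where 35.4% of all genes were called (18.0% higher and 17.4% lower). In overexpression cells against control 4 of 8 were called, 3 higher and 1 lower, where 24.3% of all genes were called (13.1% higher and 11.1% lower). Between overexpression and knockdown 5 of 8 were called, 4 higher and 1 lower, where 22.1% of all genes were called (11.0% higher and 11.1% lower). The comparisons share libraries, and Nt5e is in none of these counts. The median absolute log2 fold change over all genes was 0.18 in overexpression and 0.22 in knockdown cells against control.

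Several genes are read mostly from 1 transcript: Lgals1-201 held 99.6%, 99.5% and 99.6% of the gene's TPM in overexpression, knockdown and control libraries, and Lgals9-202 held 99.5%, 99.5% and 99.0%. Nectin2 was split between a pair of protein-coding transcripts. Nectin2-202 took 59.2 ± 6.7% of the gene's TPM in overexpression, 45.2 ± 3.9% in knockdown and 49.5 ± 5.2% in control libraries. Nectin2-201 measured 13.1, 16.0 and 15.4 TPM in overexpression libraries, 20.3, 22.9 and 20.2 TPM in knockdown libraries and 14.8, 13.8 and 11.2 TPM in control libraries, so every knockdown library lay above the rest. Nectin2-202 measured 24.5, 17.3 and 23.5 TPM in overexpression, 19.9, 17.9 and 14.7 in knockdown and 12.1, 12.8 and 13.8 in control libraries. For Nectin2-202 both altered lines lay above control and overlapped each other. Cd276-201 took 63.3 ± 6.9% of Cd276 in overexpression, 40.2 ± 21.7% in knockdown and 50.7 ± 13.7% in control libraries, and Lgals3-203 took 46.4 ± 7.6%, 63.4 ± 22.2% and 43.4 ± 6.9% of Lgals3 in the same order, with the knockdown and overexpression ranges overlapping in each case. Reads are shared out among transcripts by estimation, so these shares are less certain than gene totals, and they were not tested. For Btn2a2, Btn2a2-203 held 100% of the TPM in every overexpression and control library and 0% in every knockdown library, whose few reads were placed on Btn2a2-202 in 2 libraries and on Btn2a2-201 in 1. Those knockdown libraries held 14, 10 and 6 counts of the gene, and the difference in transcript was not tested. Pvr-201 held 90.1 ± 6.7% of Pvr in overexpression, 92.8 ± 0.63% in knockdown and 92.9 ± 3.6% in control libraries.

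**Figure D4:**
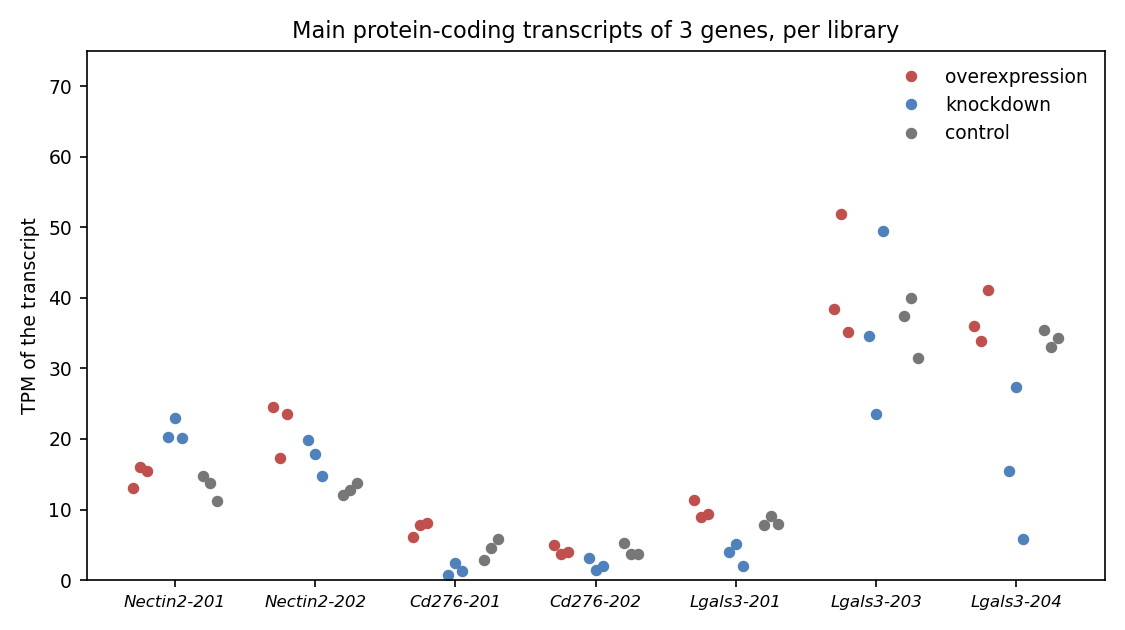
TPM of the main protein-coding transcripts of Nectin2, Cd276 and Lgals3 in each library, coloured by line. The knockdown libraries hold 20.2 to 22.9 TPM of Nectin2-201, above all others, while Lgals3-203 scatters widely within the knockdown line.

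Related families were read from lists of related genes, whose members were counted and not tested as sets. Of 17 other B7-family, TNF-superfamily and related ligands 5 passed the filter, among them Cd47, the ligand of Sirpa, at 36.1 CPM in overexpression, 38.7 in knockdown and 35.2 in control cells. By edgeR, DESeq2 and limma-voom 0 of the 5 were called in any comparison, and 0 had an unadjusted edgeR p under 0.05. The 6 genes Cd86, Vtcn1, Tnfsf4, Cd70, Cd40 and Cd200 had 0 counts in every library. Of 7 other butyrophilins 6 had 0 counts and none passed the filter.

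Among other nectins and their partners 5 of 9 were tested, and in overexpression against control 2 were higher and 2 lower (24.3% of all genes called), in knockdown against control 3 higher and 1 lower (35.4% of all genes), and in overexpression against knockdown 0 higher and 2 lower (22.1% of all genes). The median log2 fold change of the 5 was −0.18 in overexpression and 0.16 in knockdown cells against control, against −0.0012 and −0.0077 over all genes tested. Afdn, the afadin that ties nectins to actin, averaged 200 CPM in overexpression, 265 in knockdown and 112 in control cells, higher by log2 0.84 ± 0.06 (edgeR adjusted p = 4.32e-08) and 1.24 ± 0.06 (edgeR adjusted p = 1.82e-10) in overexpression and knockdown cells. Cadm4, a nectin-like adhesion molecule, fell to 40.5 CPM in overexpression and 37.6 in knockdown cells, against 114 in control cells (log2 −1.49 ± 0.08 and −1.60 ± 0.08, edgeR adjusted p = 1.64e-09 and 3.31e-10). Nectin3, a binding partner of nectin-2, was higher in both, at 49.4 and 47.4 CPM against 34.0 in control cells (edgeR adjusted p = 0.000127 and 0.00021). Cadm1, another nectin-like molecule, averaged 182 CPM in overexpression, 230 in knockdown and 206 in control cells, lower by log2 −0.18 ± 0.05 in overexpression (edgeR adjusted p = 0.00899) and higher by 0.16 ± 0.05 in knockdown cells (edgeR adjusted p = 0.0127), calls lost in 2 and 3 of 19 alternatives, with the knockdown value at −0.0029 under the length offset. Of 8 annotated genes on the galectin list 4 were tested, with 1 higher and 0 lower in overexpression against control (24.3% of all genes called), 1 higher and 1 lower in knockdown against control (35.4% of all genes), and 2 higher, Lgals3bp and Lgals8, and 0 lower in overexpression against knockdown (22.1% of all genes). Their median log2 fold change was 0.22, 0.15 and 0.03 in the same order. Lgals3bp, which encodes a galectin-3-binding glycoprotein, averaged 211 CPM in overexpression, 170 in knockdown and 149 in control cells, higher by log2 0.50 ± 0.04 (edgeR adjusted p = 1.42e-07) and 0.19 ± 0.04 (edgeR adjusted p = 0.00129), the knockdown call being lost with the length offset (adjusted p = 0.0527). Lgals8, a galectin with a pair of sugar-binding domains, averaged 86.5 CPM in overexpression, 73.4 in knockdown and 85.5 in control cells, lower in knockdown cells by log2 −0.22 ± 0.06 (edgeR adjusted p = 0.01, lost in 2 of 19 alternatives).

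All 11 genes of the interferon gamma pathway and PD-L1 stability were tested: 2 higher and 3 lower in overexpression against control (24.3% of all genes called), 3 higher and 1 lower in knockdown against control (35.4% of all genes), and 2 higher and 3 lower in overexpression against knockdown (22.1% of all genes). The knockdown count, 4 of 11, is near the share over all genes. Their median log2 fold change was 0.02 in overexpression and 0.16 in knockdown cells against control. Stat3 averaged 82.2 CPM in overexpression, 93.4 in knockdown and 147 in control cells, lower by log2 −0.84 ± 0.06 and −0.66 ± 0.06 (edgeR adjusted p = 7.78e-08 and 5.58e-07). Cmtm6, whose product keeps PD-L1 at the cell surface, averaged 26.2 CPM in overexpression, 40.8 in knockdown and 36.3 in control cells, lower in overexpression cells by log2 −0.47 ± 0.09 against control (edgeR adjusted p = 0.0017) and −0.64 ± 0.09 against knockdown (edgeR adjusted p = 0.000138). Jak1, a kinase of the interferon gamma receptor, averaged 127 CPM in overexpression, 180 in knockdown and 171 in control cells, lower in overexpression cells by log2 −0.43 ± 0.05 (edgeR adjusted p = 1.49e-05). Irf2, a transcription factor that binds interferon response elements, averaged 19.0 CPM in overexpression, 22.8 in knockdown and 16.9 in control cells, higher in knockdown cells by log2 0.43 ± 0.12 (edgeR adjusted p = 0.00983, lost in 3 of 19 alternatives). Irf1 also passed in knockdown cells, by log2 0.34 ± 0.12 (edgeR adjusted p = 0.0451), a call lost in 11 of 19 alternatives. The relative of Cmtm6, Cmtm4, averaged 100 CPM in overexpression, 70.0 in knockdown and 79.0 in control cells, higher in overexpression than in knockdown cells by log2 0.52 ± 0.07 (edgeR adjusted p = 6.70e-05). Against control it was higher in overexpression cells by log2 0.34 ± 0.07 (edgeR adjusted p = 0.00194). Knockdown cells gave −0.17 ± 0.07 against control (edgeR adjusted p = 0.0734), which did not pass.

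Of the 18 genes that handle extracellular nucleotides and adenosine 11 were tested, with 2 higher and 3 lower in overexpression against control (24.3% of all genes called), 1 higher and 3 lower in knockdown against control (35.4% of all genes), and 1 higher and 2 lower in overexpression against knockdown (22.1% of all genes). The knockdown count, 4 of 11, is again near the share over all genes. The median log2 fold change of the 11 was −0.00078 in overexpression and 0.06 in knockdown cells against control. Entpd2, an ecto-ATPase upstream of CD73, averaged 3.74 CPM in overexpression, 6.56 in knockdown and 14.0 in control cells (log2 −1.90 ± 0.21 and −1.10 ± 0.20, edgeR adjusted p = 7.34e-06 and 0.00051). Enpp1, which makes AMP from ATP, averaged 7.31 CPM in overexpression, 7.15 in knockdown and 4.33 in control cells, higher by log2 0.76 ± 0.20 and 0.73 ± 0.20 (edgeR adjusted p = 0.00917 and 0.0079). Enpp3, of the same family, averaged 2.92 CPM in overexpression, 2.56 in knockdown and 5.39 in control cells. It was lower in knockdown cells by log2 −1.07 ± 0.29 (edgeR adjusted p = 0.00829) and in overexpression cells by −0.88 ± 0.28 (edgeR adjusted p = 0.0333). The knockdown value was −0.30 with the length offset (adjusted p = 0.726) and −0.20 on log2(TPM + 1) (adjusted p = 0.730). The overexpression value was not followed through the alternatives. Cd38, an NAD-consuming ectoenzyme, averaged 8.80 CPM in overexpression, 3.52 in knockdown and 5.45 in control cells, and overexpression exceeded knockdown by log2 1.32 ± 0.21 (edgeR adjusted p = 0.000303). Against control its calls, log2 0.69 ± 0.21 in overexpression (edgeR adjusted p = 0.0233) and −0.63 ± 0.22 in knockdown cells (edgeR adjusted p = 0.0307), were lost in 5 and 7 of 19 alternatives. Slc29a1, a nucleoside transporter that takes up adenosine, averaged 48.7 CPM in overexpression, 62.4 in knockdown and 59.7 in control cells, lower in overexpression cells by log2 −0.30 ± 0.08 against control (edgeR adjusted p = 0.00947, lost in 3 of 19 alternatives). Of the NKG2D ligands 4 were tested, and 1, Raet1e, was called in knockdown against control (35.4% of all genes called). By edgeR 0 were called in overexpression against control (24.3% of all genes called) and 0 in overexpression against knockdown (22.1% of all genes). DESeq2 called 1 in overexpression against control, where Raet1e gave log2 1.19 ± 0.50 by edgeR (adjusted p = 0.099). Raet1e averaged 1.91 CPM in overexpression, 2.43 in knockdown and 0.837 in control cells, higher in knockdown cells by log2 1.54 ± 0.50 (edgeR adjusted p = 0.0241, lost in 5 of 19 alternatives). Of 6 genes of tryptophan and arginine catabolism 1 was tested and 0 were called by edgeR in any comparison, with 0 at an unadjusted p under 0.05, and Ido1 had 0 counts.

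Leukocyte receptors of these ligands were read as well. Of 13, 2 were tested and 7 had 0 counts in every library, including Pdcd1 (PD-1), Ctla4 and Tigit. In overexpression against control 1 was higher and 1 lower (24.3% of all genes called). In knockdown against control 1 was higher and 0 lower (35.4% of all genes), and in overexpression against knockdown 0 higher and 1 lower (22.1% of all genes). Havcr2, which encodes TIM-3, the receptor of galectin-9, averaged 6.65 CPM in overexpression, 9.32 in knockdown and 4.32 in control cells, higher in knockdown cells by log2 1.11 ± 0.21 (edgeR adjusted p = 0.000746). In overexpression cells its call (log2 0.62 ± 0.22, edgeR adjusted p = 0.0476) was lost in 13 of 19 alternatives. Btla, a receptor for HVEM, itself a TNF-receptor family member, averaged under 1 CPM in each line, with 0.0932 in overexpression, 0.854 in knockdown and 0.514 in control cells. Its call in overexpression against control (edgeR adjusted p = 0.037) was lost in 12 of the 17 alternatives that tested it. In overexpression against knockdown Btla was lower by log2 −3.13 ± 0.78 (edgeR adjusted p = 0.00825), a call lost in 2 of the 18 alternatives that tested it. Btla lay close to the filter on low counts and was highest in knockdown cells, so it may have passed the filter through that line. The filter and the test then use the same high libraries, and no conclusion is drawn from these calls. Ptprc stayed at 0 counts in every library. Macrophage and myeloid markers, of which 2 of 12 were tested and 5 were at 0, summed to 2.65 to 3.67 CPM in overexpression, 3.69 to 4.80 in knockdown and 1.78 to 3.25 in control libraries. The sum was highest in knockdown libraries, as was Havcr2, but its overexpression and control ranges overlapped. The 2 tested markers differed in their order of lines. Cd68 averaged 1.05 CPM in overexpression, 2.78 in knockdown and 1.88 in control cells, and Lyz2 1.79, 1.39 and 0.467. The part of these markers in the Havcr2 level was not tested.

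**Figure D5:**
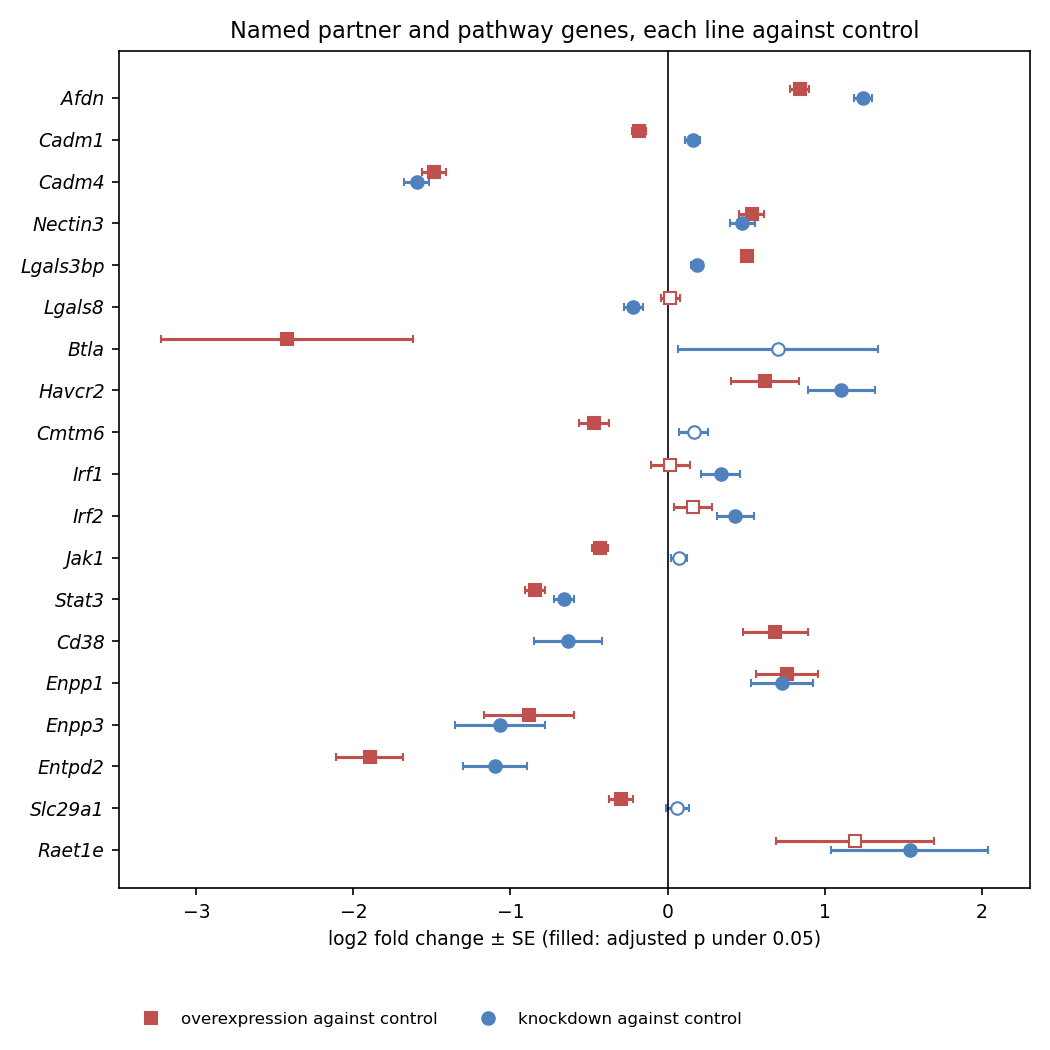
log2 fold change with its standard error for the called genes of the related lists named in the text, with Cmtm4 left out, overexpression and knockdown each against control, filled where the adjusted p was under 0.05. Cadm4 and Stat3 lie below 0 in both lines and Afdn and Nectin3 above 0, while Cmtm6 is filled in overexpression cells (−0.47) and open in knockdown cells.

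For the 3 genes with a difference of at least log2 1, the genes with the most alike pattern were found by Pearson correlation of log2 CPM over the 9 libraries among 9984 candidates. Since the libraries fall into 3 lines, these values mostly describe line means and carry no p. Cd276 was closest to Trpm1 (r = 0.994), a melanocyte channel gene, to Kif26a (0.993) and to Eif4b (0.991). Btn2a2 was closest to Ccny (r = 0.996), Galnt6 (0.991) and Uck2 (0.991), and Lgals9 to Ddit3 (r = 0.992), a stress-response factor, Mpp6 (0.989) and Washc2 (0.988). The r of deviations from the line means was lower, at 0.62 for Trpm1, 0.87 for Ccny and 0.74 for Ddit3. An r takes no account of the size of a difference. In knockdown and overexpression cells against control, Ccny was at log2 −0.53 and −0.19, where Btn2a2 was at −4.10 and −1.40. Trpm1 was at −2.38 and 0.68 and Eif4b at −0.53 and 0.09, where Cd276 was at −1.28 and 0.36. Ddit3 was at 0.28 and 0.45, where Lgals9 was at 0.70 and 1.11.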

How the data were processed

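Total RNA of 9 cultures of B16F10 cells was made into non-directional, paired-end mRNA libraries, per the labels' protocols. The authors deposited 1 transcript table for each library. Per the file headers, it gives the estimated count of fragments assigned to each transcript (which need not be whole), TPM (scaled by effective length to a fixed total) and the length and effective length in bases. Salmon 1.4.0, DESeq2 1.34.0, MultiQC 1.11 and build mm39 are named in the submitters' processing notes. Neither the annotation release nor trimming is given in the sources used here. The deposited estimated counts and TPM were summed per gene with GENCODE M21 names (GRCm38). Of 140789 transcripts 137161 (97.42%) matched, and the unmatched, left out, held 0.554% to 0.654% of counts. The only coordinates given are those of the promoter windows, in GRCm38.p6 and not mm39. Reads from sequence shared with antisense partners cannot be told apart.

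Counts were rounded and tested with edgeR 4.0.16 (R 4.3.3): filterByExpr, TMM, quasi-likelihood fit of all 9 libraries by line, and Benjamini-Hochberg adjustment over 13064 genes. A gene was called at an adjusted p under 0.05, and the ± after a log2 fold change is its standard error. Replicates differed by more than sampling noise (chi-square over degrees of freedom 4.77 to 10.98), so no library was a copy. Alternatives were DESeq2 1.42.0, limma 3.58.1 (voom, and trend on log2(TPM + 1)), other scalings and filters, an average transcript length offset, 2 lines only, a replicate block and leave-one-out fits. The steps were tested on simulated data. Named were all 9 genes, Sirpa, up to 4 called genes of each related list per comparison, and the 3 genes most correlated with each gene past a log2 fold change of 1 (at least 5 CPM in 1 line). Cell markers and some uncalled genes of the related lists were named beside these. A named gene of a related list is not reported here. The members and lists were chosen with earlier results of these data known.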

Additional observations from a re-analysis of the deposited data

How the results depend on the processing

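There were 19 alternatives. Most changed a single choice, while DESeq2 changed the test and the scaling, limma-trend on log2(TPM + 1) the test, the unit and the length scaling, and the fits of 2 lines the samples and the genes that passed the filter. Of 513 values for the 8 tested genes and Sirpa, 491 kept their direction and side of the threshold, 13 lost the call, 5 gained it and 4 changed sign. Of 814 values for the related genes 725 did, 88 lost the call and 1 changed sign. The sign changes were small values: Lgals1 in overexpression against control at 0.00057 on log2(TPM + 1), Pvr in overexpression against control at −0.013, −0.0239 and −0.0020 without overexpression replicate 2, overexpression replicate 3 and control replicate 3 (leave-one-out range −0.0239 to 0.101), and Cadm1 in knockdown against control at −0.0029 with the length offset. Counts of called genes moved with the average transcript length offset, to 1575 for overexpression against control, 2794 for knockdown against control and 1423 for overexpression against knockdown, in place of 3172, 4619 and 2887. On log2(TPM + 1) they were 1461 (1022 higher and 439 lower), 2729 (1751 higher and 978 lower) and 1162 in the same order, and the cause was not tested. On that scale, where a pseudocount understates low genes, Btn2a2 stood at −2.32 in knockdown against control and 1.25 in overexpression against knockdown. With 1 library left out they ranged from 2440 to 3297, from 3885 to 4555 and from 2241 to 2867, and the members called from 3 to 4, from 7 to 8 and from 5 to 6. Lgals1 in overexpression against knockdown passed in 5 alternatives. With the replicate number as a block, 2957, 4423 and 2712 genes were called in the same order and the members stayed at 4, 8 and 5. No sign of pairing by replicate number was seen, which with 3 libraries a line does not show that there was none. The correlation of deviations between libraries with the same number was −0.1 to 0.14, and 2 of 9 libraries correlated best with their own number. The 30 counts of Btn2a2 in knockdown libraries and the 214 to 397 counts a line of Cd274 limit the precision of both.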
